A study of Mus musculus with 4 samples.

Results

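The glycolysis and hypoxia set comprised 34 of the 32285 genes in the deposited mouse count matrices: 3 glucose transporters, 8 genes of upper glycolysis and its regulators, 7 genes of lower glycolysis, 3 genes of pyruvate and lactate handling, 3 oxygen-sensing genes and 10 further genes known to respond to low oxygen. The genes were taken by name from a list, and all 34 were found and had at least 50 UMIs (unique molecular identifiers, which count RNA molecules) over the 4 libraries. CITE-seq, which reads the RNA of a cell together with antibody tags on its surface, had been run on mouse ankle synovium cells sorted as live, CD45+ and CD11b+, and negative for CD177, Ly6C, MHCII, CD64, SiglecF and Ly6G. The mice were bone marrow chimeras in which CD45.1 B6 marrow was given to CD45.2 B6 recipients whose ankle had been shielded from irradiation, so recipient cells of the ankle were spared and both CD45 variants were found in every library. There was 1 library for baseline on day 0 and, after transfer of arthritis-inducing K/BxN serum (serum transfer-induced arthritis, STIA), 1 each for peak on day 7, plateau on day 14 and resolution on day 56. The titles of the 3 arthritis samples carry a tag, Clo-lip, that the baseline title lacks and that cannot be told apart from the stage, and how many mice went into a library is not stated.

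Glycolysis splits glucose to pyruvate. Hexokinases, phosphofructokinase and pyruvate kinase are its main controlled steps, and lactate dehydrogenase turns pyruvate into lactate, which leaves the cell through the carrier encoded by Slc16a3. With enough oxygen, the prolyl hydroxylases encoded by Egln1 and Egln3 mark the transcription factor HIF-1alpha, the product of Hif1a, for destruction. When oxygen is short HIF-1alpha persists and raises transcription of glucose transporters, most glycolytic enzymes and genes such as Bnip3 and Ankrd37, and in macrophages inflammatory stimuli also raise Hif1a. Much of this control acts on the HIF-1alpha protein, which was not measured here.

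Barcodes with 300 or more genes and a mitochondrial share of no more than 10% numbered 14451 of 15501: 1071 at baseline, 5941 at peak, 2828 at plateau and 4611 at resolution. Their gene UMIs summed to 11957871, 58705149, 29588064 and 27096151, and 20 barcode sequences occurred in more than 1 library. Cells outside the sort were present: summed levels of 9 neutrophil markers, all detected in every library, were 40400 CPM (counts per 1000000 gene UMIs, which with 3' tags do not grow with gene length) at baseline against 1052, 314 and 1633 CPM at peak, plateau and resolution. Markers of osteoclasts summed to 105, 5232, 21839 and 919 CPM over the same 4 libraries, with 2 of 10 (Calcr and Oscar) at 0 at baseline. Type 2 dendritic markers, among them the MHCII genes H2-Ab1 and H2-Eb1, summed to 3486, 5092, 2918 and 11976 CPM. Cluster 2 (1202 barcodes) had H2-Aa, H2-Ab1 and H2-Eb1 among its leading genes, and cluster 0 (1723 barcodes) was classical monocyte-like. RNA in large clusters thus did not follow the sort labels, and surface protein of these clusters is not given here. Clusters led by markers of fibroblasts, neutrophils, basophils, mast, NK or B cells held 12.4, 5.62, 6.97 and 6.20% of kept barcodes and 21.02, 7.39, 9.29 and 6.53% of their UMIs. Ratios without these clusters are given for each gene that they move across the 2-fold limit against baseline. With 1 library per stage there is no test between stages: intervals on levels and ratios between stages are exact 95% intervals for counting error alone, and differences between mice or libraries are not in them.

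Promoter sequence from RefSeq (GRCm38.p6) was matched for 30 of the 34 genes. The bases ACGTG and GCGTG are the core letters that HIF binds. In the 250 bases before a listed start site, on either strand, ACGTG was present for 18 of the 30 genes (60%), against 18.5% of 27025 genes and 24.8% of the 10408 of these with at least 50 UMIs here. GCGTG was present for 19 of 30 (63.3%), against 30.9% of all genes and 48.9% of those 10408. Either motif was present for 27 of 30 (90%), against 41.5% and 60.4%, and the 3 genes with neither were Gpi1, Tpi1 and Mif. A match is a stretch of letters and not a shown binding site. Stretches that hold the matches are shown for 6 genes whose levels are described below, a glucose transporter, 2 enzymes and 3 hypoxia targets. Capitals mark either motif as read on either strand, and overlapping matches on opposite strands were counted once each.
Slc2a1, chr4:119108664-119108733, plus strand: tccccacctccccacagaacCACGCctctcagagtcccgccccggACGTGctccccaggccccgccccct
Pgk1, chrX:106186930-106186993, plus strand: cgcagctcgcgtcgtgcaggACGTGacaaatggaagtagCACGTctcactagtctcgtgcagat
Ldha, chr7:46845639-46845794, plus strand: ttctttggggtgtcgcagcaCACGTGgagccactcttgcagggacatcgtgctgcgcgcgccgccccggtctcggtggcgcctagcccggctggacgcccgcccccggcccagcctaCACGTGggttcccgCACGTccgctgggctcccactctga
Egln3, chr12:54204079-54204123, minus strand: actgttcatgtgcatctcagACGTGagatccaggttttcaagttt
Bnip3, chr7:138909517-138909643, minus strand: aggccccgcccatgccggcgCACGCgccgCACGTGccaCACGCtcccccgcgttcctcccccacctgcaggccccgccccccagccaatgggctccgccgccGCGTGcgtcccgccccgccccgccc
Ankrd37, chr8:45999851-46000100, minus strand: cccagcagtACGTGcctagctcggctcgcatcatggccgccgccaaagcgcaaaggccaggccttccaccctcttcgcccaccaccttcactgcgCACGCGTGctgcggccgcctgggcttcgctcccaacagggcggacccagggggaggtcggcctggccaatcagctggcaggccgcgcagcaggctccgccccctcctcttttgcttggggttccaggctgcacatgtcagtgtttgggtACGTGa
Ldha and Bnip3 held 5 matches each, the highest number among the 30 genes, and Ankrd37 held 4. Mif, with none, was 2.94-, 3.74- and 3.26-fold above baseline at peak, plateau and resolution.

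The 34 genes gave 0.5% of all gene UMIs at baseline, 0.825% at peak, 0.894% at plateau and 0.841% at resolution. The median share per barcode was 0.443, 0.702, 0.795 and 0.554%. The set's share was therefore near its plateau value at resolution while the median barcode was closer to baseline, and 5% of resolution barcodes lay above 1.75% against 0.770% at baseline. After each barcode was thinned to 2000 UMIs, leaving out 83, 444, 422 and 572 shallower barcodes, the medians were 0.45, 0.7, 0.8 and 0.55%. Gapdh, a lower glycolysis enzyme, alone made up 25.6% of the set averaged over libraries, followed by Aldoa with 10.7% and Pkm with 10.3%.

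At peak against baseline, 16 of the 34 genes were at least 2-fold higher and 2 lower, where 8.74% of 13547 genes with at least 50 UMIs were at least 2-fold higher and 13.5% lower. At plateau 15 were higher and 2 lower, against 17.3% and 13.3% of all genes. At resolution 14 were higher and 1 lower, against 12.9% and 6.19%. The median log2 ratio of the 34 genes was 0.96, 0.72 and 0.65 over the 3 contrasts, beside -0.13, 0.12 and 0.19 for all genes. These contrasts share the baseline library. Between successive arthritis libraries, 0 members were at least 2-fold higher and 3 lower (Egln1, Pfkfb3 and Slc2a3) at plateau against peak, where 14.8% and 5.26% of all genes were. With TMM totals 6 were lower there, the added genes being Slc16a3, Hk2 and Ddit4, and the members' median log2 ratio was -0.35 in place of -0.09. At resolution against plateau 6 were higher and 2 lower (Hif1a and Ddit4), against 13.7% and 10.5% of all genes. With edgeR's TMM totals as the scale, which moved the median of all genes at peak from -0.13 to 0.06, the numbers at least 2-fold higher than baseline were 19, 15 and 11. Shares of all genes at least 2-fold changed on the TMM scale are not given, so no excess of members is read from the counts on that scale. Baseline was the lowest of the 4 libraries for 23 of the 34 genes, and the highest was resolution for 14, peak for 8, plateau for 8 and baseline for 4.

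**Figure D1:**
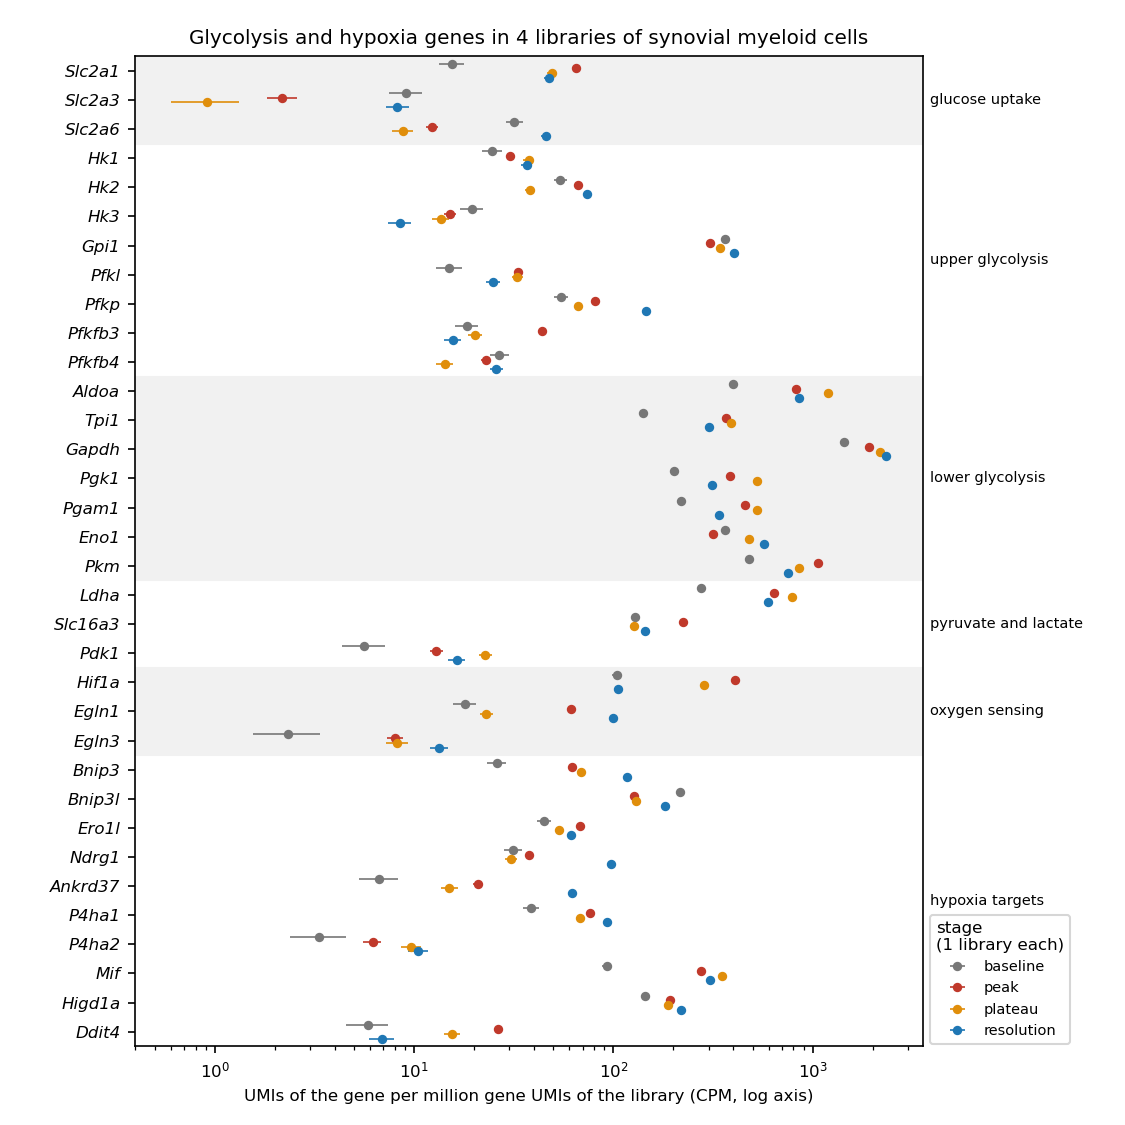
Level of each of the 34 genes in the 4 libraries, in CPM on a log axis, with exact 95% Poisson intervals for counting error. Points are libraries, baseline in grey, peak in red, plateau in orange and resolution in blue. Gapdh is highest in every library, and the order of the libraries differs between genes: Hif1a is highest at peak (406 CPM) and Ankrd37 at resolution (62.2 CPM).

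Among the glucose transporters, Slc2a1 (ENSMUSG00000028645), which encodes GLUT1, had 15.5 CPM at baseline, 64.5 at peak, 49.1 at plateau and 47.4 at resolution. It was above baseline in all 3 arthritis libraries, by 4.17-fold (95% interval 3.60 to 4.86), 3.18-fold and 3.07-fold. Slc2a3 and Slc2a6, which encode GLUT3 and GLUT6, went the other way at peak and plateau. Slc2a3 had 9.12, 2.18, 0.913 and 8.23 CPM from baseline to resolution, and Slc2a6 had 31.9, 12.3, 8.79 and 45.8 CPM. Of the 109 Slc2a3 UMIs at baseline, 72 came from the 58 barcodes of the neutrophil-like cluster. Without clusters of other cell types its log2 ratio was -1.84 at peak and -2.27 at plateau, and 1.36 at resolution, where it was -0.15 with them.

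In upper glycolysis 2 of 8 members were at least 2-fold higher at peak, 1 at plateau and 1 at resolution. Of all genes 8.74, 17.3 and 12.9% were, so the counts at plateau and resolution are no excess. Pfkfb3, which encodes an enzyme that makes the activator of phosphofructokinase, had 18.3, 43.6, 20.2 and 15.6 CPM and was thus high at peak alone. Pfkl, encoding the liver-type phosphofructokinase, had 14.97, 33.2, 32.9 and 24.9 CPM. Pfkp, encoding the platelet-type enzyme, had 54.6, 80.3, 66.2 and 146 CPM and was 2.67-fold above baseline (2.46 to 2.91) at resolution. The hexokinase genes Hk1 and Hk2 and the isomerase gene Gpi1 stayed within 2-fold of baseline throughout, Hk2 at 54.2, 66.3, 38.2 and 73.4 CPM. Hk3 had 19.4, 15.1, 13.6 and 8.49 CPM, its value at resolution being less than 0.5 times that at baseline (0.438, interval 0.363 to 0.527). At baseline 96 of its 232 UMIs lay in the neutrophil-like cluster, and without clusters of other cell types its log2 ratio at resolution was -0.69 in place of -1.19. Pfkfb4, a further regulator of phosphofructokinase, had 26.8, 22.8, 14.2 and 25.8 CPM.

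The lower glycolysis enzymes were the most abundant members. Summed over 7 genes they had 3225, 5332, 6130 and 5454 CPM. Aldoa (aldolase) had 396, 827, 1198 and 849 CPM and Tpi1 (triosephosphate isomerase) 140, 368, 388 and 303 CPM, both at least 2-fold above baseline in every arthritis library. Pgk1 and Pgam1, encoding phosphoglycerate kinase and mutase, were highest at plateau with 524 CPM each, against 201 and 217 CPM at baseline. Pkm (pyruvate kinase) was highest at peak, with 478, 1064, 857 and 750 CPM. Gapdh and Eno1 (enolase) differed less: Gapdh had 1427, 1917, 2161 and 2330 CPM, and Eno1 had 364, 317, 478 and 572 CPM. Counts of near-identical copies are uncertain, since reads of Eno1 and of its copy Eno1b (39, 307, 179 and 174 UMIs) may be shared, and other listed copies of Aldoa, Gapdh and Ldha had at most 2 UMIs in any library.

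Ldha, which encodes the lactate dehydrogenase A subunit, had 274, 639, 790 and 594 CPM, and was 2.33-, 2.89- and 2.17-fold above baseline in the 3 arthritis libraries. With TMM totals its log2 ratio at resolution was 0.972 in place of 1.12, just under 2-fold. Slc16a3 (ENSMUSG00000025161), encoding the lactate exporter MCT4, was highest at peak, with 129, 224, 127 and 144 CPM, and was within 2-fold of baseline in every library. Pdk1, whose product keeps pyruvate out of mitochondria, had 5.60, 12.9, 22.7 and 16.3 CPM and was 4.06-fold above baseline at plateau (3.15 to 5.30).

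The oxygen-sensing genes followed different courses. Hif1a (ENSMUSG00000021109) had 104 CPM at baseline, 406 at peak, 285 at plateau and 106 at resolution. It was 3.90-fold above baseline at peak (3.69 to 4.14), and at resolution the ratio was 1.02 (0.949 to 1.086). Egln1, encoding the prolyl hydroxylase PHD2, had 17.9, 61.6, 23.0 and 99.8 CPM, high at peak and resolution and low at baseline and plateau. Egln3, encoding PHD3, itself a target of HIF, had 2.34, 8.02, 8.21 and 13.4 CPM. At resolution Egln1 and Egln3 were 5.57-fold (4.85 to 6.44) and 5.71-fold (3.88 to 8.71) above baseline while Hif1a was at its baseline level.

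Of the 10 further hypoxia genes, 4 were at least 2-fold higher at peak, 5 at plateau and 6 at resolution, and none was 2-fold lower. Of all genes 8.74, 17.3 and 12.9% were higher and 13.5, 13.3 and 6.19% lower. Ankrd37 (ENSMUSG00000050914), a HIF target encoding an ankyrin repeat protein, had 6.69, 20.95, 15.04 and 62.2 CPM and was 9.30-fold above baseline at resolution (7.43 to 11.8), the largest ratio of any member there over all barcodes. Bnip3, which encodes a receptor for the removal of mitochondria, had 25.9, 62.2, 68.3 and 116 CPM. Ndrg1, a stress-response gene, had 31.3, 37.8, 30.7 and 97.1 CPM and was above baseline by more than 2-fold at resolution alone. Ddit4, encoding the mTORC1 inhibitor REDD1, had 5.85, 26.4, 15.5 and 6.90 CPM, high at peak and near baseline at resolution as Hif1a was. Mif, a cytokine gene, had 93.2, 274, 349 and 304 CPM. P4ha1, encoding a collagen prolyl hydroxylase subunit, had 38.6, 76.4, 68.3 and 93.1 CPM. Higd1a, encoding a mitochondrial protein, stayed within 2-fold of baseline, as did Ero1l, encoding an oxidase of protein folding, over all barcodes. Of the 536 Ero1l UMIs at baseline, 227 lay in the neutrophil-like cluster, and without clusters of other cell types its log2 ratio was 1.20 at peak and 1.07 at resolution, in place of 0.60 and 0.45. Bnip3l, the relative of Bnip3, was highest at baseline with 216, 127, 129 and 181 CPM.

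P4ha2, encoding the other collagen prolyl hydroxylase subunit, had 3.35, 6.18, 9.63 and 10.4 CPM, but much of it lay in the clusters of other cell types. Of its 363 UMIs at peak, 235 came from the 120 barcodes of fibroblast-like cluster 11, and 294 came from clusters of other cell types. Without those clusters its log2 ratio to baseline was -0.54 at peak, 0.71 at plateau and 2.07 at resolution, where it was 0.87, 1.51 and 1.63 with them. Ddit4 and Egln3 also had counts there: 202 of 1549 Ddit4 UMIs at peak were in 63 basophil-like barcodes, and 81 of 362 Egln3 UMIs at resolution in 224 fibroblast-like barcodes. At plateau, leaving out these clusters brought the log2 ratio of Ddit4 to 0.83 in place of 1.40 and that of Ankrd37 to 0.97 in place of 1.16. Without the clusters of other cell types, 17, 12 and 16 members were at least 2-fold above baseline at peak, plateau and resolution. Shares of all genes under this setting are not given, so no excess of members is read from these counts.

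**Figure D2:**
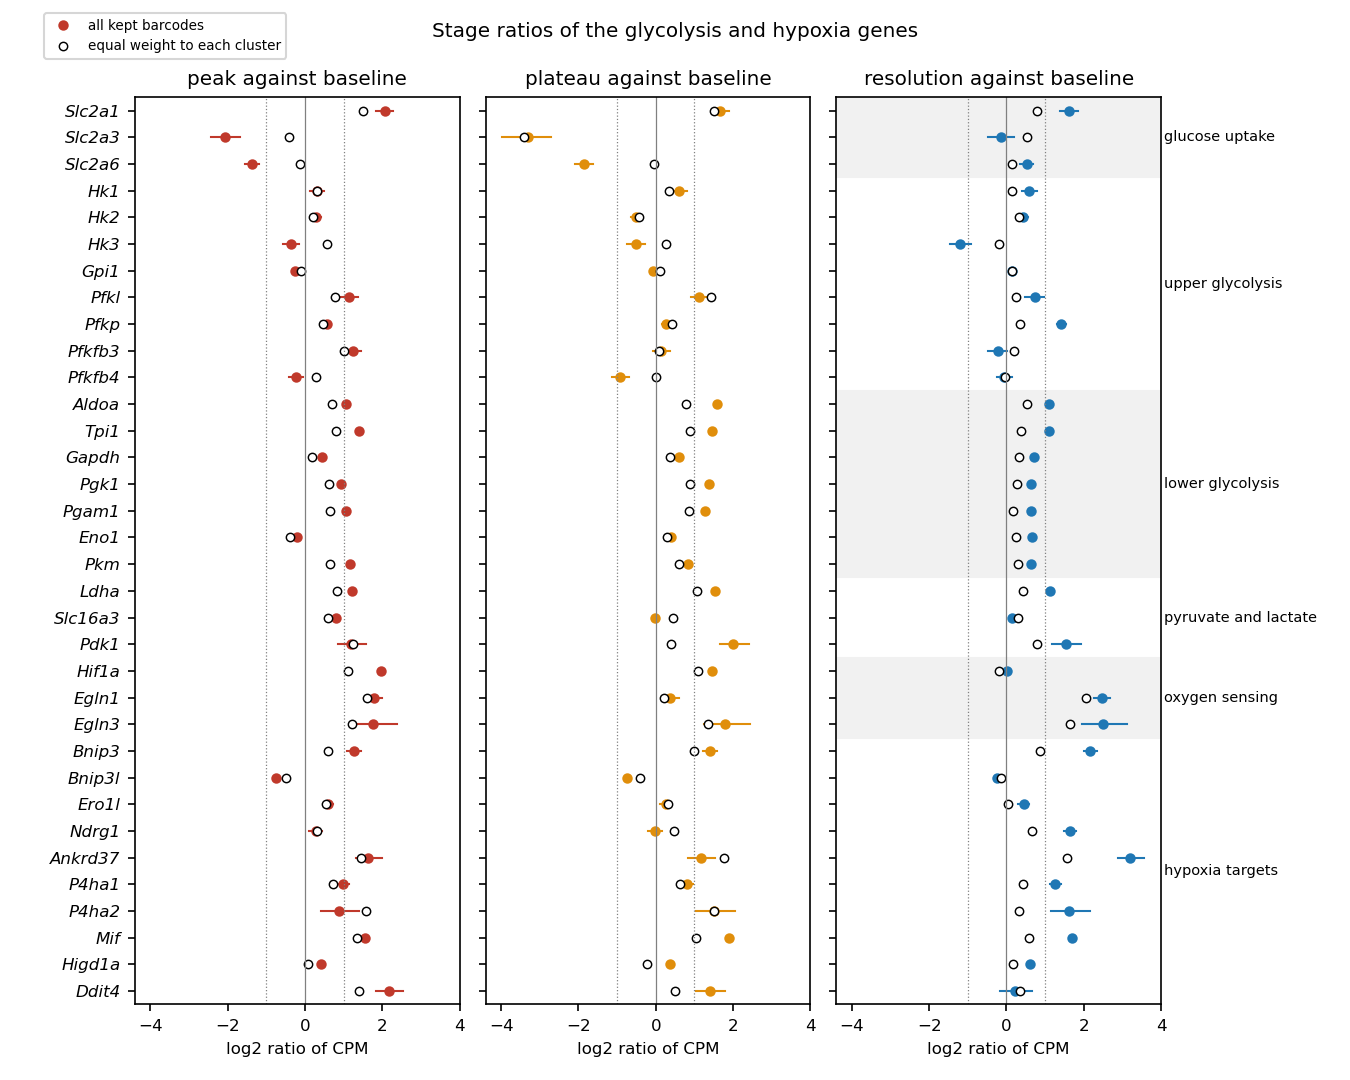
Log2 ratio of each gene to the baseline library, over all kept barcodes (filled points, with 95% intervals for counting error) and with equal weight for each cluster present in both libraries (open points); dotted lines mark 2-fold. With equal weight the median ratio is 0.64, 0.46 and 0.32 in place of 0.96, 0.72 and 0.65. Clusters 1, 2, 3, 6 and 10, with 0 or 1 baseline barcodes each, do not enter the open points.

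The mix of cells differed between libraries, so the ratios were recomputed with equal weight for each cluster that had at least 20 barcodes in both libraries. Clusters were made without the 34 genes. Those that entered were 0, 4, 7, 8, 9, 11 and 13, with 17 added at peak and 5 at resolution. Clusters 1, 2, 3, 6 and 10, with 0 or 1 baseline barcodes each, could not enter. They held 21.1, 13.1, 11.5, 4.21 and 10.5% of gene UMIs at peak, and 5.19, 7.78, 11.7, 12.6 and 37.9% at plateau. Equal-weight values thus describe the shared clusters and not the whole libraries. Over 8, 7 and 8 such clusters the members at least 2-fold higher numbered 9, 8 and 3 at peak, plateau and resolution, against 9.31, 11.6 and 8.72% of all genes, and 0, 1 and 0 were lower. The median log2 ratio was 0.64, 0.46 and 0.32, beside -0.03, 0.09 and 0.05 for all genes, and 29, 29 and 30 of 34 members had a ratio above 1. At resolution the largest log2 ratios were then those of Egln1 (2.06, in place of 2.48), Egln3 (1.63, in place of 2.49) and Ankrd37 (1.57, in place of 3.21). Hif1a at peak had 1.12 in place of 1.96. Bnip3 had 0.87 in place of 2.16 and Pfkp 0.35 in place of 1.42 at resolution. Slc2a6, 1.37 log2 units below baseline at peak over all barcodes, was at -0.12 with equal weight.

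Egln1 was high at peak and resolution within single clusters as well. In classical monocyte-like cluster 0 it had 12.5, 46.2, 16.6 and 51.0 CPM from baseline to resolution, and in tissue macrophage-like cluster 9 it had 30.3, 75.7, 33.2 and 94.3 CPM. In both clusters baseline and plateau were low. The CPM of Hif1a was 122, 254, 224 and 121 within cluster 0, and within cluster 9 it was 117, 227, 240 and 132, high at peak and plateau in both. The total share of the 34 genes was 0.465, 0.533, 0.576 and 0.506% in cluster 0, 0.432, 0.475, 0.497 and 0.471% in nonclassical monocyte-like cluster 7 and 0.464, 0.476, 0.562 and 0.603% in cluster 9. It varied more in interferon-responding-like cluster 8, with 0.400, 0.767, 0.923 and 0.443%. Cluster 4, led by Aqp1 and Fxyd2, had 0.625, 0.809, 0.928 and 0.727%, and cycling-like cluster 13 had 0.570, 0.840, 0.883 and 0.982%.

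**Figure D3:**
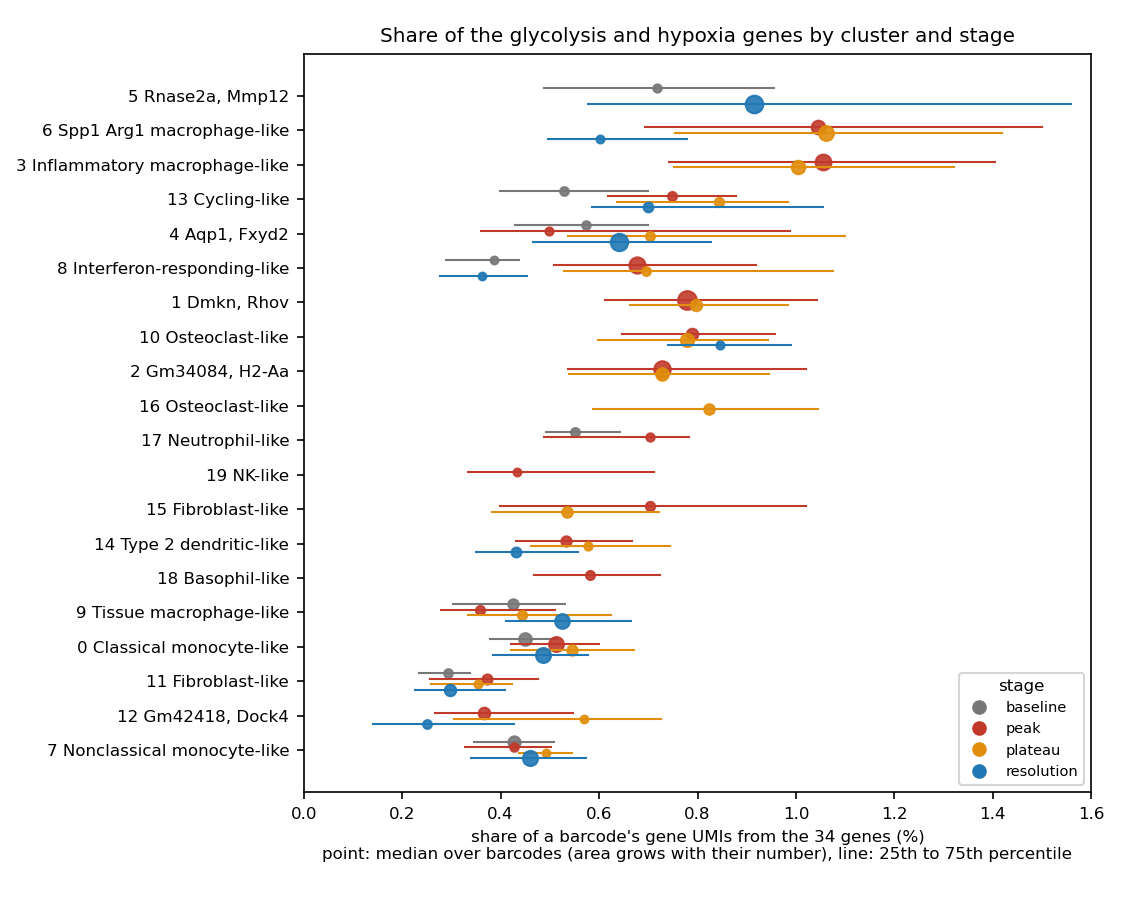
Share of each barcode's gene UMIs that came from the 34 genes, by cluster and stage, for cluster and library pairs with at least 20 barcodes. Points are medians over barcodes and lines the 25th to 75th percentile; unnamed clusters carry their 2 leading genes. Clusters 3 and 6 are highest at peak and plateau, cluster 5 at baseline and resolution, and nonclassical monocyte-like cluster 7 is among the 5 lowest medians at every stage.

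At peak and plateau it was highest in Spp1 Arg1 macrophage-like cluster 6 (1.24% of UMIs at peak and 1.26% at plateau) and inflammatory macrophage-like cluster 3 (1.12 and 1.13%), which is led by Cxcl3 and Cxcl2. These clusters held 1 and 0 of the 1071 baseline barcodes, so no ratio to baseline could be formed within them. At resolution it was highest in cluster 5, led by Rnase2a and Mmp12 and left unnamed, with 1.36% of UMIs in 1073 barcodes. The same cluster had 33 barcodes and 1.06% at baseline. Osteoclast-like cluster 10 had 0.849, 0.843 and 0.826% at peak, plateau and resolution. Cluster 20 (B-like) had 0.311% over all libraries and cluster 0 had 0.510%, the median depth being 2275 and 6871 UMIs per barcode.

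**Figure D4:**
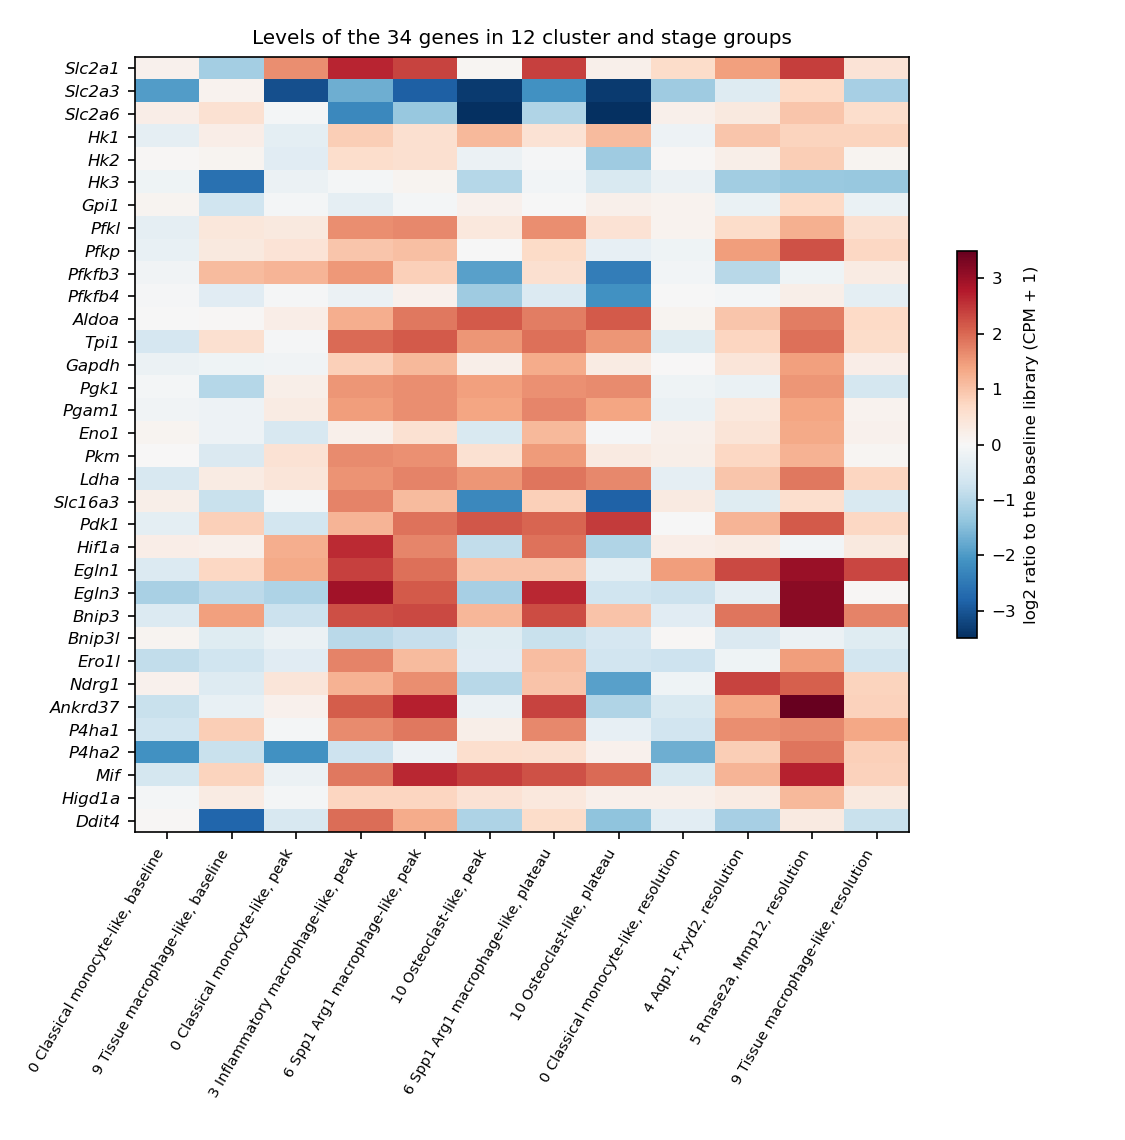
Log2 ratio of each gene's level (CPM with 1 added) in 12 cluster and stage groups to its level in the whole baseline library, red above and blue below, with colours ending at 3.5. The groups were chosen to span the range of the set's share. Hif1a is high in cluster 3 at peak (644 CPM) and pale in cluster 5 at resolution (96.6 CPM), where Ankrd37, Bnip3 and Egln3 are deep red.

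The clusters that were high in the set differed in which members were high. In cluster 3 at peak Hif1a had 644 CPM, Slc16a3 435, Pkm 1521 and Slc2a1 103 CPM, while Ankrd37 had 32.1 and Bnip3 128 CPM. In cluster 5 at resolution Hif1a had 96.6 CPM, below the 121 CPM of cluster 0 in the same library. Yet Ankrd37 had 167 CPM there against 4.28 in cluster 0, Bnip3 241 against 19.4, Egln3 28.7 against 0.987, Mif 610 against 64.5 and Ldha 993 against 221.5 CPM. Cluster 5 contributed 1369 of the 1685 Ankrd37 UMIs of the resolution library (81.2%), 62.7% of Bnip3, 60.7% of Mif and 53.8% of Pfkp, from 23.3% of its barcodes and 30.2% of its gene UMIs. Osteoclast-like cluster 10 at plateau combined high enzyme levels (Aldoa 1759 CPM, Pgk1 631, Ldha 873, Pdk1 35.3) with low Hif1a (49.3 CPM), Slc16a3 (17.3) and Pfkfb3 (2.59).

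Across the 55 pairs of a cluster and a library with at least 20 barcodes, the members whose level went most closely with the summed level of the other 33 genes were Pgam1 (Pearson r = 0.91), Pkm (0.86), Pgk1 (0.85), Ldha (0.84) and Tpi1 (0.83). Hif1a had 0.17, Egln1 0.29 and Pfkfb3 -0.07, and the lowest were Slc2a3 (-0.23) and Bnip3l (-0.35). The points share 4 libraries and their depths, so these values are a description. The highest values belonged to enzymes of lower glycolysis and Ldha, and Slc2a1 had 0.57. Lower glycolysis genes make up most of the summed level, Gapdh alone being 25.6% of the set averaged over libraries. Enzymes of that group were thus in large part compared with each other, and their high rank shows no closer tie to the other members. P4ha2 had no counts at 23 of the 55 points, Slc2a3 at 17 and Egln3 at 13, and sparse counts can lower r. Hif1a and Bnip3l had counts at every point.

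Barcodes with at least 2% of their UMIs from the set, a limit chosen after the values were seen, were 0.280% of the baseline library (3 barcodes, exact 95% interval 0.0578 to 0.816%). They were 2.31% at peak (137 barcodes, 1.94 to 2.72%), 3.22% at plateau (91 barcodes, 2.60 to 3.94%). At resolution the share was 3.58% (165 barcodes, 3.06 to 4.16%). Such barcodes are the end of a continuous range: 93 barcodes at peak and 50 at resolution lay within 0.2 percentage points below the limit. After thinning to 2000 UMIs the shares were 0.304, 3.00, 4.24 and 4.33%. At peak they were spread over clusters 3 (45 barcodes), 6 (42) and 1 (30, led by Dmkn and Rhov), and at plateau 49 of 91 were in cluster 6. At resolution 157 of 165 were in cluster 5, 14.6% of that cluster. Their median depth at resolution was 9896 UMIs against 4791 in the other barcodes, and their median mitochondrial share was 1.22% against 1.35%. Within cluster 5 at resolution they were 131 of 934 CD45.1 barcodes (14.0%, 11.9 to 16.4) and 21 of 72 CD45.2 barcodes (29.2%, 19 to 41.1). The intervals in this paragraph treat barcodes of 1 library as independent, so differences between mice or libraries are not in them. The difference between the variants was not tested.

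Donor and recipient cells were compared within each library by the antibodies to CD45.1 and CD45.2, a barcode being assigned when one exceeded the other at least 2-fold. CD45.1 barcodes numbered 808, 5576, 2402 and 3249 from baseline to resolution, and CD45.2 barcodes 190, 219, 239 and 730. The set made up 0.495, 0.832, 0.931 and 0.889% of gene UMIs in CD45.1 barcodes, against 0.537, 0.784, 0.779 and 0.786% in CD45.2 barcodes. The share was thus lower in CD45.1 barcodes at baseline and higher in the other 3 libraries. Counts were summed by library and variant and tested with edgeR's quasi-likelihood test with the library as block, n = 4 libraries, with p adjusted over 12555 genes by Benjamini-Hochberg. Of all genes 11.0% were higher and 9.35% lower in CD45.1 barcodes at an adjusted p under 0.05. Of the 34 members 8 were higher and 1 lower, with a median log2 fold change of 0.50 beside 0.004 for all genes.

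The largest log2 fold change among the called members was that of the lactate exporter gene. Slc16a3 had 139, 240, 143 and 155 CPM in CD45.1 barcodes from baseline to resolution, against 80.6, 65.7, 51.0 and 123 CPM in CD45.2 barcodes. Its log2 fold change was 1.39 ± 0.28 (SE) with an adjusted p of 0.019, higher in CD45.1 barcodes in 4 of 4 libraries, and it was the only member whose CD45.1 and CD45.2 levels did not overlap. Of all 12555 genes, 4.81% had all 4 CD45.1 levels above the CD45.2 levels and 10.7% all 4 below, so 1 of 34 members is no excess. Slc2a1 had 16.3, 68.9, 54.5 and 51.8 CPM in CD45.1 barcodes and 10.96, 20.2, 26.1 and 42.5 CPM in CD45.2 barcodes, a log2 fold change of 1.19 ± 0.28 (adjusted p = 0.029). The difference was widest at peak for both genes. Pfkfb4 (ENSMUSG00000025648) had 28.7, 23.8, 15.4 and 28.2 CPM in CD45.1 barcodes and 18.6, 14.99, 8.12 and 19.3 CPM in CD45.2 barcodes, a log2 fold change of 0.95 ± 0.15 (adjusted p = 0.0082). Its difference was of like size in all 4 libraries, and its adjusted p remained below 0.05 whichever library was left out. The fold changes use TMM totals, while the CPM use total UMIs. The log2 ratios of the Pfkfb4 CPM were 0.60, 0.65, 0.90 and 0.54 from baseline to resolution. With total UMIs as scale its edgeR log2 fold change was 0.68.

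The other 5 members higher in CD45.1 barcodes were Ddit4 (log2 fold change 1.15, adjusted p = 0.037), Slc2a6 (0.74, 0.046), Hk2 (0.62, 0.032), Pkm (0.61, 0.045) and Eno1 (0.57, 0.036), each higher in 4 of 4 libraries except Slc2a6 in 3. The collagen-modifying gene P4ha2 was lower in CD45.1 barcodes, with 1.61, 2.58, 6.13 and 8.74 CPM against 6.58, 12.4, 13.6 and 11.6 CPM in CD45.2 barcodes (log2 fold change -1.13 ± 0.32, adjusted p = 0.048). Without clusters of other cell types it was -0.95 with an adjusted p of 0.19. Hif1a had 104, 426, 294 and 101 CPM in CD45.1 barcodes and 108, 162, 159 and 117 CPM in CD45.2 barcodes, a difference seen at peak and plateau that did not pass the test over all libraries (log2 fold change 0.77 ± 0.30, adjusted p = 0.11). Ldha (0.14 ± 0.16, adjusted p = 0.57) and Aldoa (0.12 ± 0.15, 0.61) had small estimates. Mif had 74.3, 243, 330 and 333 CPM in CD45.1 barcodes and 203, 570, 433 and 252 CPM in CD45.2 barcodes, lower in CD45.1 barcodes in 3 of 4 libraries (log2 fold change -0.40 ± 0.28, adjusted p = 0.35).

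Fewer members were called under another scale or after matching. With total UMIs in place of TMM totals the median of all genes was -0.26, 832 genes were higher and 1773 lower in place of 1381 and 1174, and the members called were Pfkfb4, Slc16a3 and Slc2a1 higher and P4ha2 lower. The variants were unevenly spread over clusters: CD45.2 barcodes were 92.4, 85.9, 90.3 and 65.3% of assigned barcodes in tissue macrophage-like cluster 9 but 0.665% in cluster 3 and 2.50% in cluster 6 at peak. Equal numbers of CD45.1 and CD45.2 barcodes were then drawn from each cluster of each library (61, 164, 180 and 565 per variant). At an adjusted p under 0.05 edgeR called 0 of 34 members in either direction, where 1.99% of 11335 genes were higher and 1.15% lower. At an unadjusted p under 0.05 there were 10 members, and the share of all genes at that limit is not given. Of the 34 members 12 had a matched log2 fold change above 0. Mif had -0.51, Higd1a -0.32 and Tpi1 -0.30, lower in CD45.1 barcodes, and Pfkp had 0.29. The median of the 34 genes was then -0.07. Slc16a3 had a matched log2 fold change of -0.002 ± 0.13, Slc2a1 0.21 ± 0.16, Pfkfb4 0.21 ± 0.20 and Slc2a6 0.54 ± 0.25, and Ankrd37 had -0.81 ± 0.21 (adjusted p = 0.052). Matching changed both the mix of cells and the number of barcodes, and their parts in the loss of calls were not tested.

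**Figure D5:**
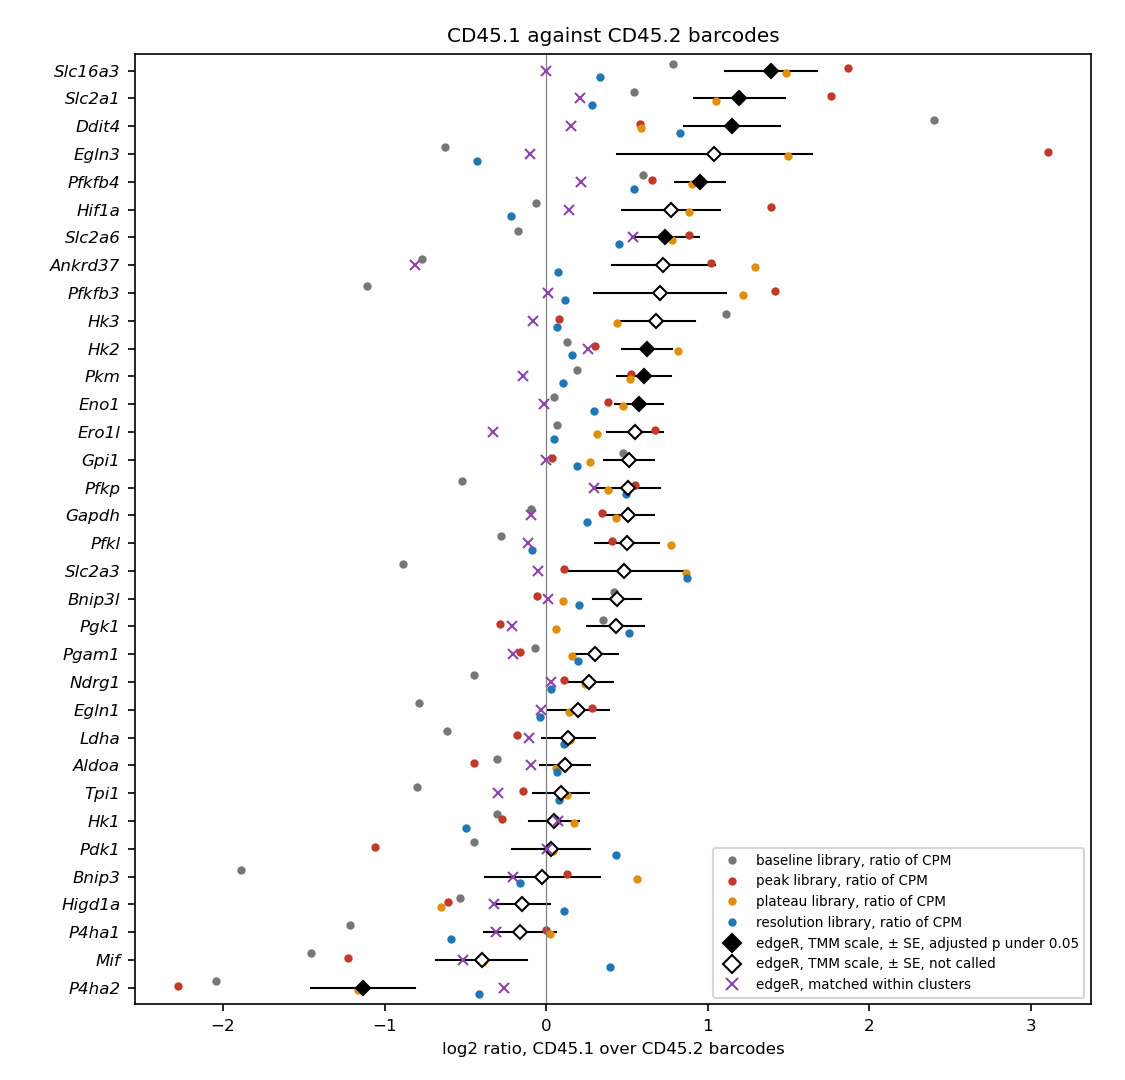
Log2 ratio of CD45.1 over CD45.2 barcodes for each gene: per library from CPM (small points), from edgeR over 4 libraries with its SE (diamonds, filled where adjusted p is under 0.05) and from edgeR after matching within clusters (crosses). Slc16a3 lies at 1.39 over all barcodes and near 0 after matching, and the diamonds use TMM totals, under which the median of all genes is 0.004, while with total UMIs it is -0.26.

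Stage ratios were also formed within each variant. At peak against baseline 17 members were at least 2-fold higher within CD45.1 barcodes and 6 within CD45.2 barcodes, where 10.9% and 13.2% of all 13547 genes were. At plateau the numbers were 15 and 8, against 20.7% and 15.2% of all genes. At resolution they were 14 and 7, against 17.9% and 7.23% of all genes. The difference between the variants was not tested. The median log2 ratios were 0.96 and 0.23 at peak, 0.81 and 0.14 at plateau, and 0.73 and 0.57 at resolution, in CD45.1 and CD45.2 barcodes. CD45.2 counts were small for some members, such as 3 Egln3 UMIs at peak and 1 Slc2a3 UMI at plateau.

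Other lists of genes from these and related pathways were counted in the same way. At peak, plateau and resolution, 8.74, 17.3 and 12.9% of all genes were at least 2-fold higher and 13.5, 13.3 and 6.19% lower. These shares apply to the counts in this and the next paragraph, several of which lie near them. Of 34 further hypoxia targets, 31 had at least 50 UMIs and 12, 19 and 10 of these were at least 2-fold above baseline at peak, plateau and resolution, with 2, 1 and 1 lower. Plod2, encoding a collagen lysyl hydroxylase, had 1.087, 12.5, 37.1 and 4.91 CPM, and Bhlhe40, a transcriptional repressor, had 101, 120, 237 and 306 CPM. Of the 10 oxygen-sensing genes outside the set, 0 were 2-fold higher at peak, 2 at plateau and 0 at resolution. Cited2, an inhibitor of HIF, was among the higher at plateau with 101, 139, 318 and 102 CPM. Slc16a1, the lactate carrier MCT1, had 2.76, 15.6, 26.5 and 7.57 CPM, and of 7 such carriers 1, 3 and 2 were higher and 1, 1 and 0 lower.

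Among 15 pentose phosphate and glycogen genes 0, 2 and 0 were higher and 0, 3 and 1 lower, Pygl (glycogen phosphorylase) having 103, 51.8, 37.8 and 40.8 CPM. Among 12 genes of pyruvate entry 0, 5 and 2 were higher and 1, 0 and 0 lower. Of 11 other glycolysis isoforms 1, 4 and 2 were higher and 3, 3 and 2 lower, and Eno3, an enolase gene that is also among the leading genes of nonclassical monocyte-like cluster 7, had 66.6, 5.52, 4.77 and 47.7 CPM. Energy stress genes (17) gave 0, 2 and 4 higher and 2, 0 and 0 lower. Genes known to respond to tissue dissociation (22) gave 2, 3 and 6 higher and 1, 3 and 0 lower, and their summed level was 12882, 13599, 12833 and 16063 CPM.

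In the CD45 comparison the further hypoxia targets gave 5 higher and 10 lower of 29 tested, with a median log2 fold change of -0.50. For this and the other lists, 11.0% of all genes were higher and 9.35% lower. Of genes named here after their values were seen, Vegfa and Hilpda were among the higher, and Lox, Loxl2 and Plod2, enzymes of collagen modification, among the lower. These fits include the fibroblast-like clusters. CD45.2 barcodes were 39.3, 18.8, 0 and 44.7% of assigned barcodes in cluster 11 from baseline to resolution. In cluster 15 they were 21.2% at peak and 44.2% at plateau. Values of these genes without such clusters are not given. Pentose phosphate and glycogen genes gave 4 higher (G6pdx, Tkt, Taldo1 and Pygl) and 0 lower of 14 by edgeR. Dissociation genes gave 4 higher and 1 lower of 22, isoforms 2 and 0 of 10, carriers 1 and 0 of 7, pyruvate entry 0 and 0 of 12, oxygen sensing 1 and 0 of 10 and energy stress 1 and 2 of 16.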

How the data were processed

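Counts were deposited by the authors as 1 matrix of whole-number UMI counts per library, for genes and antibodies, made with Cell Ranger 6.1.2 per the file headers. The submitters' processing notes also name mm10 and Seurat 4.4.0. Cells had been prepared with 10x 3' chemistry and feature barcodes per the labels' protocols. Barcodes were kept at 300 genes and 10% mitochondrial UMIs. Levels are CPM of all gene UMIs with exact 95% Poisson intervals, and ratios between single libraries carry conditional binomial intervals. Log2 ratios had 0.5 counts added to each sum, and genes needed 50 UMIs in all. Intervals cover counting error alone. Clusters came from scanpy 1.11.5 and leidenalg 0.10.2 (2000 variable genes without the 34 members, 30 components, 15 neighbours, resolution 0.8), with no doublet caller; leaving out barcodes with 10 or more UMIs of both CD45 antibodies was an alternative. Clusters were named from marker lists. CD45.1 and CD45.2 barcodes (antibody log2 ratio of at least 1 either way) were summed per library and compared with edgeR 4.0.16 quasi-likelihood fits (TMM, robust, library as block; 8 sums), p adjusted by Benjamini-Hochberg over all genes, in R 4.3.3, with DESeq2 1.42.0 as an alternative. Pairing comes from the shared library. The sums of 1 library are not separate mice, so p-values measure the spread between 4 libraries of different stage. All 34 members are described. Of other lists, the 3 genes with the largest ratio at peak and the 2 with the highest level could be named, and others named are said to be chosen after their values were seen. Members and lists were chosen with earlier results of these data known. Promoters were RefSeq GRCm38.p6 sequence.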

Additional observations from a re-analysis of the deposited data

Results flagged for a closer look

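For 3 members the ratio to baseline lay above 1 in CD45.1 barcodes and below 1 in CD45.2 barcodes, with counting intervals that did not include 1 in either. Pfkfb3, which regulates phosphofructokinase, had a log2 ratio of 1.59 in CD45.1 and -0.927 in CD45.2 barcodes at peak, and 0.553 and -1.77 at plateau. Pfkp had 0.705 in CD45.1 and -0.362 in CD45.2 barcodes at peak, and 0.452 and -0.451 at plateau. Bnip3 had 1.99 in CD45.1 and -0.464 in CD45.2 barcodes at plateau. The difference between the variants in these stage ratios was not tested, since each stage had 1 library. The share of all genes that meet the same rule is not given, so no excess among the members is claimed.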

How the results depend on the processing

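Some alternatives were chosen after seeing the data: leaving out clusters of other cell types or the shallow clusters, total UMIs as scale, and cluster 4 alone. With CD45.2 barcodes alone, 6, 8 and 7 members were at least 2-fold above baseline at peak, plateau and resolution, where 13.2, 15.2 and 7.23% of all genes were. At plateau and resolution 5 and 2 were lower, and the share of all genes lower in CD45.2 barcodes is not given. Ratios of 9, 9 and 1 members had the opposite sign there, and the share of all genes that did so is not given. Those at least 2-fold from baseline over all barcodes were Pfkfb3 (-0.93), Egln3 (-1.82) and Bnip3 (-0.24) at peak, and Egln3 (-0.095), Bnip3 (-0.46) and Ankrd37 (-0.65) at plateau. With equal weight for each cluster that had at least 20 barcodes in both libraries, 9, 8 and 3 were higher and 0, 1 and 0 lower. Without clusters of other cell types 0 were lower at resolution.

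In the CD45 comparison 8 members were higher and 1 lower. Without the library as a replicate block 0 and 0 were called by edgeR, with 5 at an unadjusted p under 0.05. Of all 11499 genes tested there, 217 were called higher and 251 lower. Leaving out 1 library gave 1 to 5 higher (5 without baseline, 2 without peak, 1 without plateau, 4 without resolution) and 0 to 1 lower. In the same order 721 of 13109, 567 of 12314, 798 of 12215 and 1169 of 12022 genes were higher. The numbers of all genes lower were 784, 426, 795 and 913. Without plateau 1 of 34 members is thus no excess, and 2 of 34 without peak lies near the share of all genes. With total UMIs as scale 3 were higher, against 832 of 12555 genes. An antibody log2 ratio of 2 gave 5 and 0, against 983 and 755 of 11979 genes. The filter of 500 genes and 5% mitochondrial UMIs gave 0 lower, against 1230 of 12453 genes. Leaving out barcodes with both antibodies gave 5 higher, against 1163 of 12443 genes. Leaving out other cell types gave 5 and 0, against 1170 and 756 of 11608 genes. Matching within clusters gave 0 and 0 (10 at an unadjusted p under 0.05), with Eno1 at -0.012, Pkm at -0.14 and Slc16a3 at -0.0022. Of the 34 members 12 had a matched fold change above 0. Shares of all genes at an unadjusted p under 0.05 are not given for any setting. Cluster 4 alone gave 0 and 0 of 24 tested (3 at an unadjusted p under 0.05), with Slc2a1 at -0.13 and Slc16a3 at -0.23. Of 3474 genes tested in cluster 4, 35 were higher and 25 lower. DESeq2 called 10 and 1 in the comparison of all barcodes, against 1567 and 1572 of 12555 genes. The cause of these changes was not tested. CD45.2 barcodes, 190 to 730 per library, limit the depth of this comparison.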
